A study of Mus musculus with 12 samples.

Results

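Aldo-keto reductases are enzymes that use NADPH to reduce aldehydes and ketones to alcohols. In the liver they act on sugar aldehydes, on aldehydes left by lipid peroxidation, on drugs, and on steroids and precursors of bile acids. The Akr1c genes form a tandem cluster of close copies whose products are best known as hydroxysteroid dehydrogenases, while Akr1a1, Akr1b7 and Akr7a5 belong to other branches of the family.

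The genes described here are 9 aldo-keto reductase genes chosen by name, Akr1a1, Akr1b7, Akr1c6, Akr1c12, Akr1c13, Akr1c14, Akr1c19, Akr1c20 and Akr7a5, of 24062 genes in the deposited count tables. They were chosen with earlier results of these data known, and other genes of the family are given below. RNA-seq was performed on whole liver of 12 female C57BL/6J mice without genetic modification, 6 on a control diet and 6 on a matched diet with BIBB-515 at 55 mg/kg body weight for 10 days. BIBB-515 inhibits lanosterol synthase, which closes the sterol rings on the path to cholesterol. The mice arrived at an age of 6 weeks, were acclimated for 2 weeks, and were all on the control diet for 3 days before the diets diverged. Control mice carry the numbers 1 to 6 and BIBB-515 mice 6 to 11, and the shared number 6 stands for different animals. Counts were scaled to library size by the TMM method and are given as CPM, the reads of a gene relative to the scaled total of its library. The diets were compared with the quasi-likelihood test of edgeR over the 12481 genes that reached 1 CPM in 2 or more mice, and a gene was called past a false discovery rate (FDR) of 0.05. All 9 genes passed this filter, and each exceeded 1 CPM in every mouse.

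Between 22764819 and 31058370 reads were counted on genes per mouse. The 20 most abundant genes took 27.7% to 29.8% of the reads of a control mouse and 23.6% to 25.2% of those of a BIBB-515 mouse. Of 8 hepatocyte markers, none rose, 2 (Alb and Ttr) fell with BIBB-515 and the other 6 did not pass the threshold. The list summed to 144705 to 160848 CPM in the control mice and to 109224 to 124728 CPM in the BIBB-515 mice. Most of this sum was Alb, at a mean of 120094 CPM in the control mice and 90923 CPM in the BIBB-515 mice. None of the 5 tested bile duct, 5 Kupffer cell and leukocyte, and 6 endothelial cell markers passed the threshold. Of the others, 2 of 7 stellate cell markers (Dcn and Lrat) and 1 of 2 intestinal markers (Fabp2) fell, and 1 of 2 fat cell markers (Car3) rose. For comparison, 7.18% of all tested genes rose and 6.48% fell. Summed over its list, the stellate cell markers ranged from 334 to 457 CPM in the control mice and from 329.7 to 421 CPM in the BIBB-515 mice. The intestinal markers, mostly Fabp2, summed to 70.3 to 150.1 CPM and 67.3 to 91.6 CPM. The fat cell markers, nearly all Car3, summed to 504 to 947 CPM and 1363 to 1804 CPM. The fat cell sum thus describes Car3 and not the list as a whole. Fabp4, the other tested fat cell marker, was at 8.70 CPM in the control mice and 9.25 CPM in the BIBB-515 mice (log2 fold change 0.09, FDR 0.735). The untested fat cell markers had at most 3 reads in any mouse. Lep, a defining fat cell marker, had 0 counts in each of the 12 libraries, as had Mc2r of the adrenal cortex and Cdx2 and Sis of the intestine. The part of these markers in the differences below was not tested.

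With BIBB-515, 5 of the 9 genes rose and none fell. Akr1b7 rose most, by 9.55-fold, followed by Akr1c19 at 2.39-fold, Akr1c14 at 1.52-fold, Akr7a5 at 1.31-fold and Akr1a1 at 1.26-fold. Akr1c6, Akr1c12, Akr1c13 and Akr1c20 did not pass the threshold. Over all tested genes 13.7% passed it, 7.18% as higher and 6.48% as lower with BIBB-515. The median log2 fold change of the 9 genes was 0.33, against -0.01 over all tested genes. The same 5 genes showed no overlap of CPM values between the diets, as did 7.07% of all tested genes. Because the 9 genes were chosen with earlier results of these data known, these counts describe the list only. In whole tissue, more RNA per cell and more cells of an expressing type cannot be told apart.

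**Figure D1:**
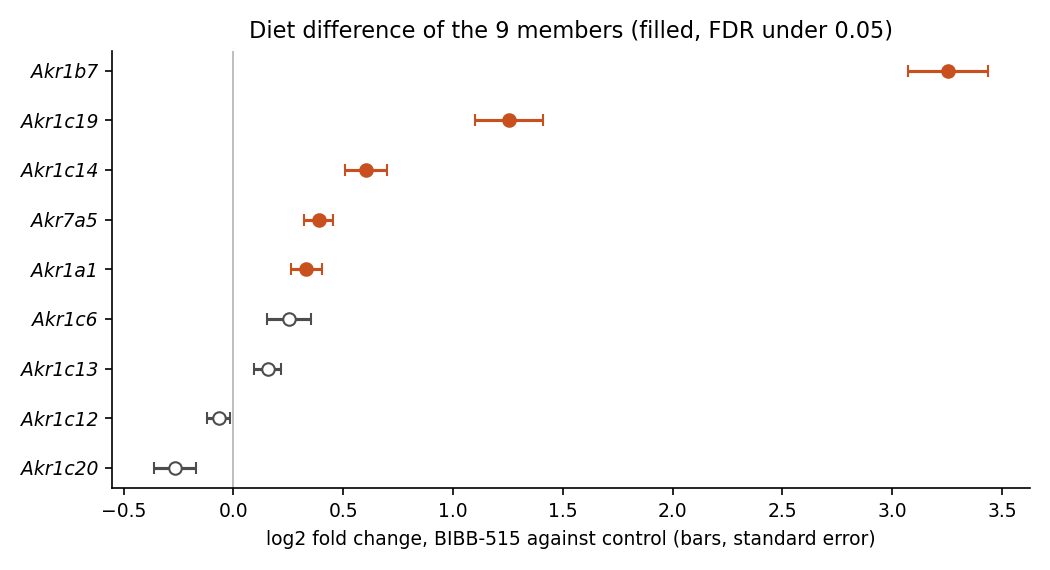
Log2 fold change of each of the 9 genes with its standard error (x axis, BIBB-515 against control), genes ordered by the change (y axis). Filled orange points passed an FDR of 0.05 in edgeR's quasi-likelihood test and open grey points did not. Akr1b7 stands at 3.26, and Akr1c20, at -0.27, is the lowest.

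The regions upstream of 4 of these genes are shown first. Akr1b7 and Akr1c19 are the genes with the largest rises. Akr1c12 and Akr1c13 are the pair with the most similar start regions, and neither passed the threshold. The stretches are taken from RefSeq for build GRCm38.p6, which has the coordinates of mm10, the build of the count tables. Each runs from 250 bases before the transcription start to 50 bases after it, 5′ to 3′ along the gene. RefSeq start regions were found for 8 of the 9 genes, and in each the start matched the gene's end in the count tables to the base.

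Akr1b7 lies on the plus strand with its start region at chr6:34412112-34412411, and Akr1c19 on the plus strand at chr13:4233490-4233789. Capitals mark matches on either strand to AGGTCA, the half-site that many nuclear receptors bind, or to TGACNNNGC, the core of the antioxidant response element.
Akr1b7: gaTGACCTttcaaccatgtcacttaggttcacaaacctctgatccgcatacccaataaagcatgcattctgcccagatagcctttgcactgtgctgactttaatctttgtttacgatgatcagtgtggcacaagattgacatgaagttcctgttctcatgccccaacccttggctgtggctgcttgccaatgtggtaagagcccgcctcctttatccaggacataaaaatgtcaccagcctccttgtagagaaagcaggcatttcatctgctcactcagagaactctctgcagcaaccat
Akr1c19: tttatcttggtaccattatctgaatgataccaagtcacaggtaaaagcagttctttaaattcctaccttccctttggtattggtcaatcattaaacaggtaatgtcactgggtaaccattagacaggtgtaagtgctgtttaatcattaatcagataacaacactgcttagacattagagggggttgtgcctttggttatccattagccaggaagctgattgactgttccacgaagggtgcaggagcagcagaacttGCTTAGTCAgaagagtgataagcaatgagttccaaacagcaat

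The match in Akr1b7 is a half-site on the opposite strand, and that in Akr1c19 is an antioxidant response element core on the opposite strand, just after the start. Akr7a5 also held a half-site, and the start regions of the other 5 genes held neither motif. The half-site occurred in 16.3% and the antioxidant core in 12.4% of 32851 start regions of the same length, against 2 and 1 of the 8 genes. The motifs were written without regard to their overlap, and a match is a description of the letters and not of binding.

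Akr1c12 lies on the minus strand with its start region at chr13:4279350-4279649, and Akr1c13 on the plus strand at chr13:4190937-4191236. Here capitals mark bases that differ between the pair in a local alignment of 296 bases, or that face a gap.
Akr1c12: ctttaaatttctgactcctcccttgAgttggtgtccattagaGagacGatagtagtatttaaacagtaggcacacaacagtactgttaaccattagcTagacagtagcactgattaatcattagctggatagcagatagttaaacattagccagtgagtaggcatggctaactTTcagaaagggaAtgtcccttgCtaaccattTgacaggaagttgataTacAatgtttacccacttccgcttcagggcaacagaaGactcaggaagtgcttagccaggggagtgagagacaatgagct
Akr1c13: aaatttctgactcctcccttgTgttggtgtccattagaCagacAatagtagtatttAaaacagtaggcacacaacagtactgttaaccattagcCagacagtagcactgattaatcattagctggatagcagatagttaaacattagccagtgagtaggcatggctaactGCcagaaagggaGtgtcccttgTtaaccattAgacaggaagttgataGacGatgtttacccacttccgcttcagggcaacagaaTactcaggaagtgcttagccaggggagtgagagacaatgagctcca

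These start regions were 95.9% identical, with 12 differing bases and 1 base facing a gap. Against Akr1c13, the start region of Akr1c19 aligned over 206 bases at 67.5% identity. The transcripts of Akr1c12 and Akr1c13 were 94.6% identical over 1260 aligned bases, and those of Akr1c6 and Akr1c20 92.3% over 797. In the GENCODE annotation, 28.6% of the 50-base words of the Akr1c12 transcript also occur in Akr1c13 and the same share the other way. For Akr1c6 and Akr1c20 the shared part was 2.08% and 2.05%, for Akr1b7 2.52%, and for Akr1a1, Akr1c14, Akr1c19 and Akr7a5 it was 0. Reads that map to several places were left out of the deposited counts, so Akr1c12 and Akr1c13 are counted on the bases that tell them apart, and their levels are uncertain to that extent.

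Akr1b7 encodes an aldose reductase-like enzyme known from the adrenal cortex and the vas deferens. It lies on chromosome 6 from 34412362 to 34423137 (mm10), with 10 exons. In the control mice it was counted at 1.94 to 5.51 CPM, with a median of 3.52, and in the BIBB-515 mice at 31.3 to 41.6 CPM, with a median of 34.8. The lowest BIBB-515 mouse lay far above the highest control mouse, and no control mouse exceeded 6 CPM. The control mean of 3.77 ± 1.31 CPM compared with 36.1 ± 4.10 CPM under BIBB-515 (SD, n = 6 each), which is a log2 fold change of 3.26 ± 0.18 (SE). Its FDR in the edgeR fit was 3.96e-08. By unadjusted p it ranked 7 of 12481 genes. The counts behind these values ran from 48 reads in a control mouse to 1276 in a BIBB-515 mouse. Markers of the adrenal cortex, a tissue known for Akr1b7, summed to 2.62 to 3.98 CPM in the control mice and 2.64 to 3.09 CPM in the BIBB-515 mice, nearly all of it Star.

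Its neighbors on chromosome 6 are the closely related aldose reductase genes Akr1b10 and Akr1b8, whose transcripts are each 84.6% identical to that of Akr1b7 where they align. Akr1b10 rose from 2.53 ± 0.300 to 3.55 ± 0.364 CPM (SD, n = 6 each), or 0.49 on the log2 scale (FDR 0.0114), with overlap between the diets. Akr1b8 was at 2.69 ± 0.723 CPM and 2.80 ± 0.603 CPM (SD, n = 6 each; log2 fold change 0.07, FDR 0.848). Akr1b10 did not exceed 3.96 CPM and Akr1b8 did not exceed 3.85 CPM in any mouse. All 10 exons of Akr1b7 were higher with BIBB-515, without overlap, at log2 ratios of 3.12 to 3.75. The exon with the highest ratio, the first, is thinly covered, down to 1 read in a control mouse.

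Akr1c19 is one of the less studied members of the Akr1c cluster. It lies on the plus strand of chromosome 13 from 4233740 to 4248359. Its CPM ranged from 14.9 to 30.8 with a median of 19.4 in the control mice, and from 41.7 to 57.7 with a median of 50.3 in the BIBB-515 mice. The groups did not overlap, and control mouse 3 was nearest to the BIBB-515 mice. The mean rose from 20.7 ± 6.07 CPM to 49.5 ± 5.69 CPM (SD, n = 6 each), which is a log2 fold change of 1.25 ± 0.16 (SE; FDR 0.000118). Each of its 9 exons was higher with BIBB-515 without overlap, and the exon log2 ratios lay within 1.20 to 1.30. This is the narrowest spread over exons among the 9 genes.

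Akr1c14 encodes a hydroxysteroid dehydrogenase that inactivates dihydrotestosterone. It lies on the plus strand of chromosome 13 from 4059591 to 4090422, at the outer end of the 6 Akr1c genes among the 9. Its level ran from 153 to 204 CPM in the control mice, with a median of 169.5, and from 224 to 320.3 CPM in the BIBB-515 mice, with a median of 254. The groups did not overlap. BIBB-515 mouse 8, the highest of its group here, was also the highest for Akr1c6, Akr1c12, Akr1c13 and Akr1c19. The mean rose from 173 ± 18.6 CPM to 262 ± 35.2 CPM (SD, n = 6 each; log2 fold change 0.60 ± 0.10, SE; FDR 0.000938). All 9 exons were higher, 7 of them without overlap, at log2 ratios of 0.55 to 0.77.

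Akr1c6 encodes a hydroxysteroid dehydrogenase of mouse liver that acts on estrogens and androgens. It lies on the plus strand of chromosome 13 from 4434343 to 4457530. Its CPM was 534 to 774 with a median of 662 in the control mice, and 710.4 to 897 with a median of 770.3 in the BIBB-515 mice. The groups overlapped, although each of the 6 BIBB-515 mice exceeded the mean of the controls and 3 exceeded the highest control mouse. The means were 661 ± 102 CPM and 787 ± 65.8 CPM (SD, n = 6 each), and the log2 fold change of 0.25 ± 0.10 (SE) had an FDR of 0.109. A two-sided exact permutation test of its log2 CPM gave p = 0.0346, unadjusted.

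Akr1c13 and Akr1c12 lie on chromosome 13 from 4191187 to 4205603 and from 4268172 to 4279399, on opposite strands. Akr1c13 lay between 63.0 and 78.1 CPM in the control mice and between 75.8 and 86.2 CPM in the BIBB-515 mice, with medians of 73.9 and 80.7. The groups overlapped at a few mice, and 4 BIBB-515 mice exceeded the highest control mouse. Its log2 fold change came to 0.16 ± 0.06 (SE; FDR 0.105; two-sided exact permutation test, p = 0.0130, unadjusted). Akr1c12, its near copy, lay between 56.9 and 64.3 CPM in the control mice and between 54.7 and 62.0 CPM in the BIBB-515 mice, with medians of 60.6 and 58.0. Here the groups overlapped almost fully, with a log2 fold change of -0.07 ± 0.05 (SE; FDR 0.434). Their standard errors were the smallest among the 9 genes.

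Akr1c20, on the minus strand of chromosome 13 from 4507159 to 4523333, had the lowest log2 fold change of the 9 genes. It was at 50.8 to 79.0 CPM in the control mice, with a median of 64.4, and at 47.9 to 55.9 CPM in the BIBB-515 mice, with a median of 53.3. Control mice 2 and 3, at 53.1 and 50.8 CPM, lay within the BIBB-515 range, and the other 4 control mice lay above it. The means were 63.2 ± 10.4 CPM and 52.6 ± 3.41 CPM (SD, n = 6 each), with a log2 fold change of -0.27 ± 0.10 (SE; FDR 0.0793; two-sided exact permutation test, p = 0.0368, unadjusted). Without control mouse 2 the FDR was 0.0402 and without control mouse 3 it was 0.0300, so the call rests on these mice. All 7 exons listed for it had lower means with BIBB-515, none without overlap.

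**Figure D2:**
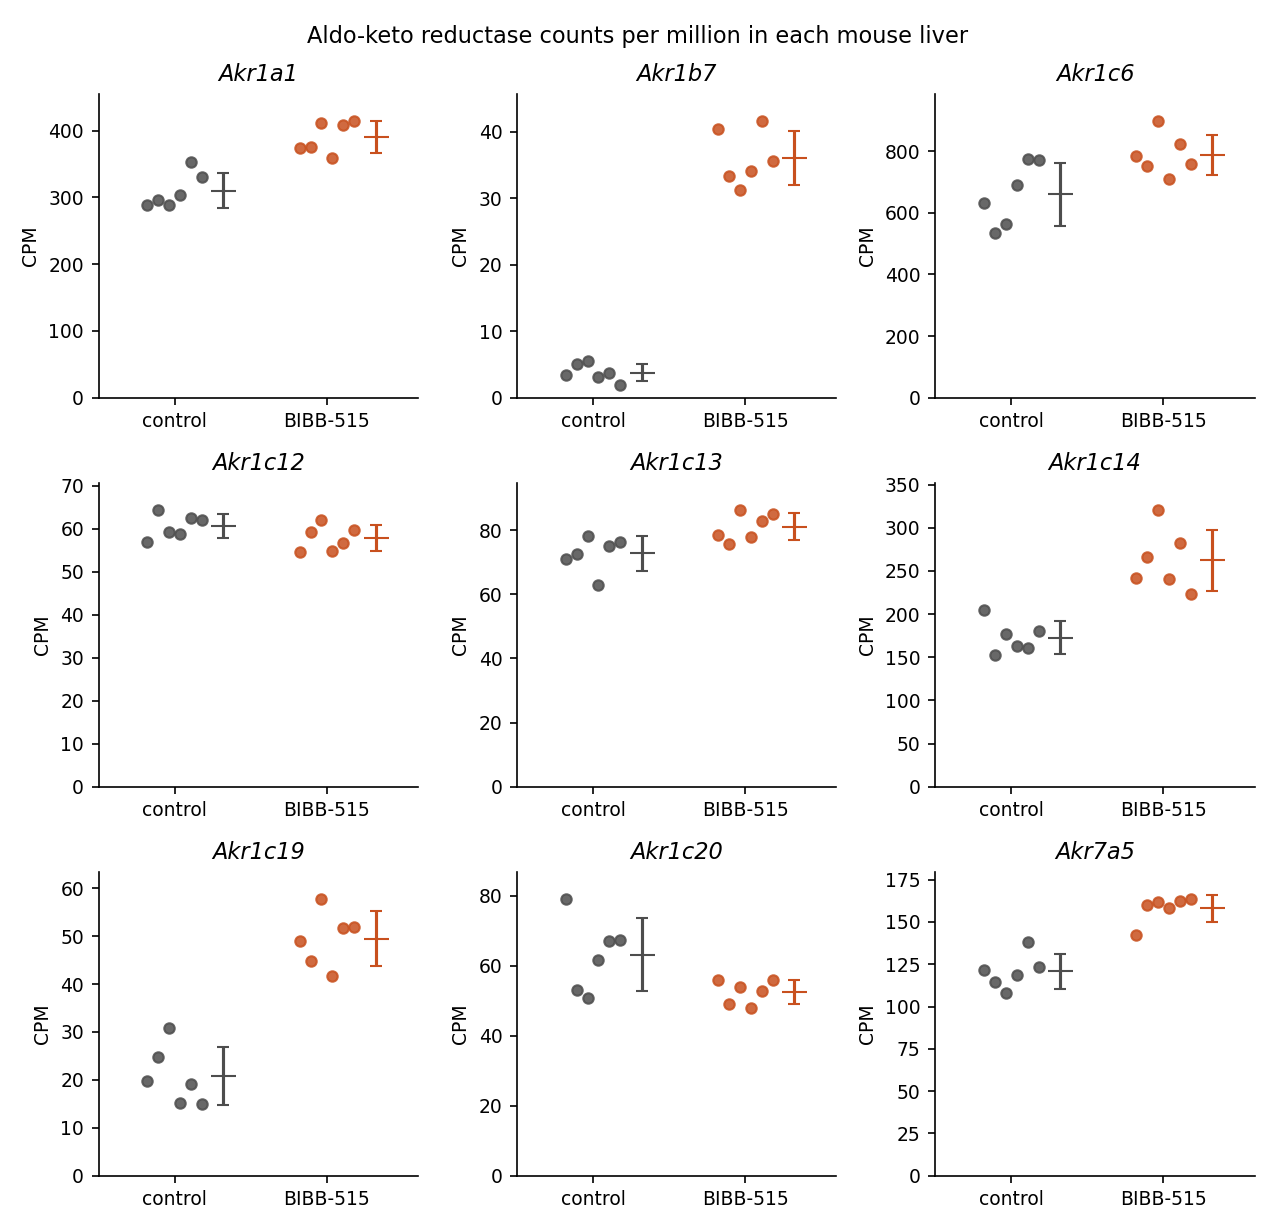
CPM of each gene (y axis, from 0) in each of the 6 control mice (grey) and the 6 BIBB-515 mice (orange), in the order of their numbers, with the mean and SD beside them. The diets do not overlap for Akr1a1, Akr1b7, Akr1c14, Akr1c19 and Akr7a5 and overlap for the other 4 genes.

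Within a mouse, the ratio of the counts of a pair of genes does not depend on how libraries are scaled. The log2 ratio was compared between the diets for each of 15 pairs of the 6 Akr1c genes among the 9. Akr1c18, given below, was not among them. Each pair was compared by a two-sided exact permutation test, adjusted over the 15 pairs. The ratio differed in 13 pairs, with adjusted p of at most 0.0225, and in 8 pairs the diets did not overlap. These genes of the cluster therefore did not shift in 1 common proportion. The pairs share genes and are not independent. Every pair with Akr1c14 or Akr1c19, which rose, is among the 13. The share of differing ratios over other pairs of genes was not computed. The widest shift was that of Akr1c19 against Akr1c20, whose log2 ratio went from -1.64 ± 0.586 to -0.09 ± 0.113 (SD, n = 6 each; adjusted exact permutation p = 0.00406). The latter is the smallest value that this test gave after adjustment.

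Both pairs of closest copies shifted. Akr1c6 against Akr1c20 went from a log2 ratio of 3.39 ± 0.202 to 3.90 ± 0.108 without overlap (SD, n = 6 each; adjusted exact permutation p = 0.00406). Akr1c13 against Akr1c12 went from 0.26 ± 0.106 to 0.49 ± 0.0685, with overlap (SD, n = 6 each; adjusted exact permutation p = 0.00649). The pairs that missed the threshold were Akr1c13 with Akr1c6, whose log2 ratio differed by -0.11 (exact permutation p = 0.383), and Akr1c12 with Akr1c20, whose log2 ratio differed by 0.18 (adjusted exact permutation p = 0.165). Spread between mice also differed. The SD of the ratio was larger in the control mice than in the BIBB-515 mice for most pairs, with Akr1c19 or without it. The exceptions were Akr1c14 with Akr1c13 and Akr1c14 with Akr1c20. This difference was not tested.

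**Figure D3:**
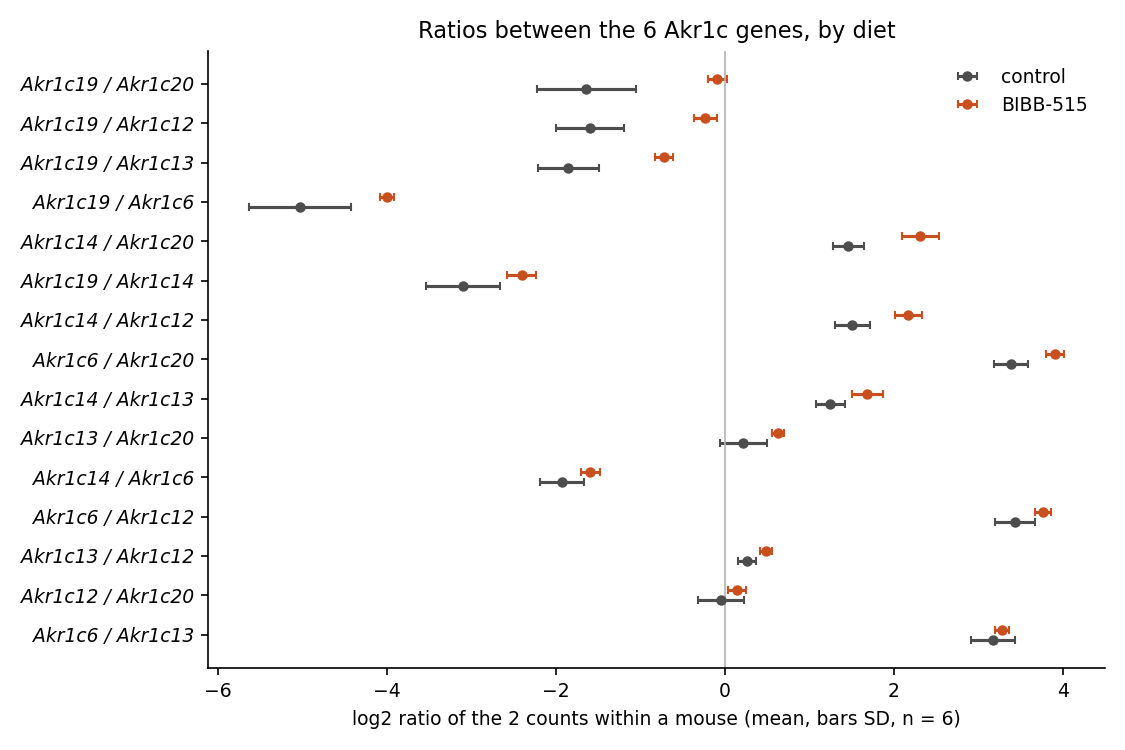
Log2 ratio of the counts of each pair of the 6 Akr1c genes compared here within a mouse (x axis), as mean and SD over 6 control mice (grey) and 6 BIBB-515 mice (orange). Pairs are written so that the ratio is higher with BIBB-515 and ordered by the difference, from 1.55 for Akr1c19 over Akr1c20 at the top to 0.11 for Akr1c6 over Akr1c13 at the bottom.

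Akr1a1 encodes aldehyde reductase, which in mice turns glucuronate into gulonate on the path to vitamin C. It lies on the minus strand of chromosome 4 from 116636510 to 116651674. The control mice ranged from 289 to 352 CPM with a median of 300.03, and the BIBB-515 mice from 359 to 414 CPM with a median of 392. The ranges were close but did not overlap. The mean rose from 310.1 ± 25.9 CPM to 390.3 ± 23.8 CPM (SD, n = 6 each; log2 fold change 0.33 ± 0.07, SE; FDR 0.00681), and all 9 exons were higher, 6 without overlap.

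The other 5 genes taken for vitamin C synthesis went in different directions: 1 rose, 2 fell and 2 did not pass the threshold. Among all tested genes 7.18% rose and 6.48% fell. Ugdh, which makes UDP-glucuronate upstream of Akr1a1, rose from 79.8 ± 35.2 CPM to 344 ± 60.0 CPM (SD, n = 6 each; log2 fold change 2.11, FDR 4.33e-05). Downstream, Rgn, which forms the lactone of gulonate, fell from 1241 ± 109 CPM to 895 ± 29.2 CPM (log2 fold change -0.47, FDR 0.000631). Gulo, which makes vitamin C in the last step, fell from 498 ± 55.4 CPM to 365 ± 11.4 CPM (log2 fold change -0.45, FDR 0.00148). For Ugdh, Rgn and Gulo the diets did not overlap. Ugp2, which makes UDP-glucose, was at 373 and 414 CPM (log2 fold change 0.15, FDR 0.320).

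Akr7a5 encodes a reductase of succinic semialdehyde and of aflatoxin dialdehyde. It lies on the plus strand of chromosome 4 from 139310744 to 139318786. Its CPM ranged from 108 to 138 in the control mice, with a median of 120.1, and from 142 to 163 in the BIBB-515 mice, with a median of 160.7. The groups did not overlap, and BIBB-515 mouse 6 stood below the other 5 mice of its group. The mean rose from 121 ± 10.2 CPM to 158 ± 7.87 CPM (SD, n = 6 each; log2 fold change 0.39 ± 0.07, SE; FDR 0.00150). All 7 exons were higher, 4 of them without overlap.

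**Figure D4:**
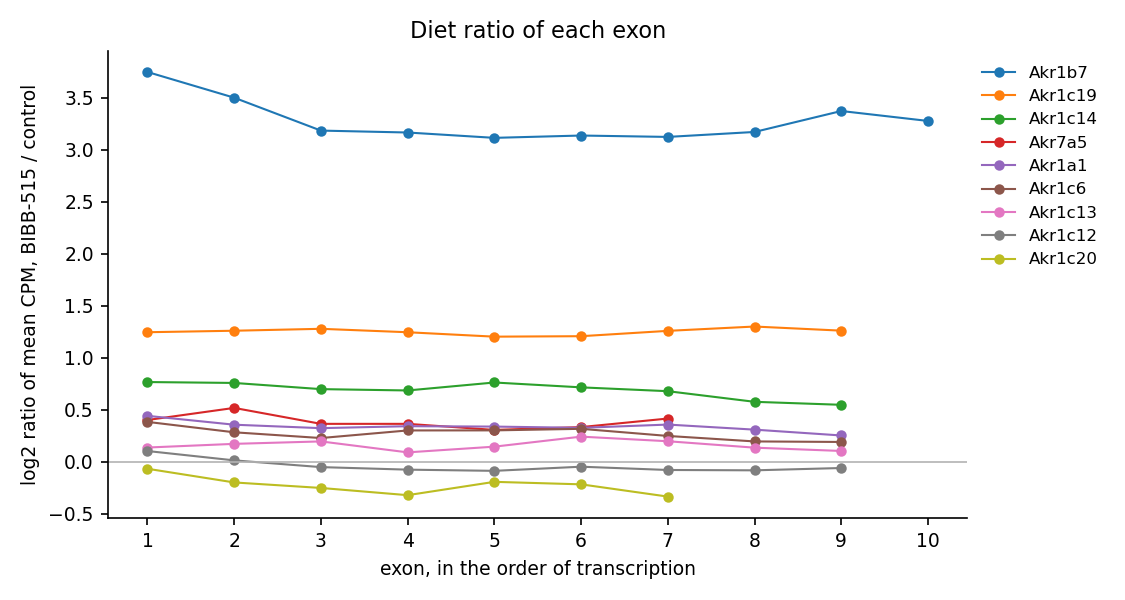
Log2 ratio of the mean CPM of each exon, BIBB-515 over control (y axis), against the exon's order along the gene (x axis), with a line for each of the 9 genes. Akr1b7 lies above 3 and Akr1c19 near 1.2 to 1.3 at each exon, while the exons of Akr1c12 lie around 0 and those of Akr1c20 below it.

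To compare levels between genes, CPM was divided by the exon length listed in the count tables. In the control mice Akr1c6 was highest at 486 ± 75.3 CPM per kilobase, followed by Akr1a1 at 219 ± 18.3 CPM per kilobase, and neither overlapped with its neighbors in the order. Akr7a5, Akr1c14, Akr1c13, Akr1c12 and Akr1c20 followed at 73.3, 70.7, 59.0, 49.3 and 48.4 CPM per kilobase, each overlapping the next. Akr1c19 at 16.7 ± 4.89 and Akr1b7 at 3.02 ± 1.05 CPM per kilobase (SD, n = 6 each) came last, apart from the others. In the BIBB-515 mice the order was the same at both ends, with Akr1c6 at 579 ± 48.4 and Akr1b7 at 28.9 ± 3.29 CPM per kilobase. Between them, Akr1c14 at 107 CPM per kilobase overlapped Akr7a5 at 95.9, and Akr1c20 at 40.2 overlapped Akr1c19 at 39.8. The counts of Akr1c12 and Akr1c13 were divided by the full length, although reads that map to both were left out. Their places in either order are uncertain to that extent.

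Summed over the 9 genes, the level was 1026 ± 97.3 CPM per kilobase in the control mice and 1280.2 ± 83.8 in the BIBB-515 mice (SD, n = 6 each), with ranges of 910.2 to 1150.02 and 1176 to 1413. The summed ranges did not overlap. Akr1c6 held 47.2% ± 3.10 of this sum in the control mice and 45.2% ± 1.09 in the BIBB-515 mice, and Akr1a1 held 21.4% ± 0.990 and 21.6% ± 0.817. Akr1b7 went from 0.303% ± 0.128 of the sum to 2.27% ± 0.288, and Akr1c19 from 1.67% ± 0.621 to 3.10% ± 0.182 (SD, n = 6 each). The genes with the largest folds thus held small shares of the sum over the 9 genes on both diets. Other genes of the family, such as Akr1d1, given below, are not in this sum.

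**Figure D5:**
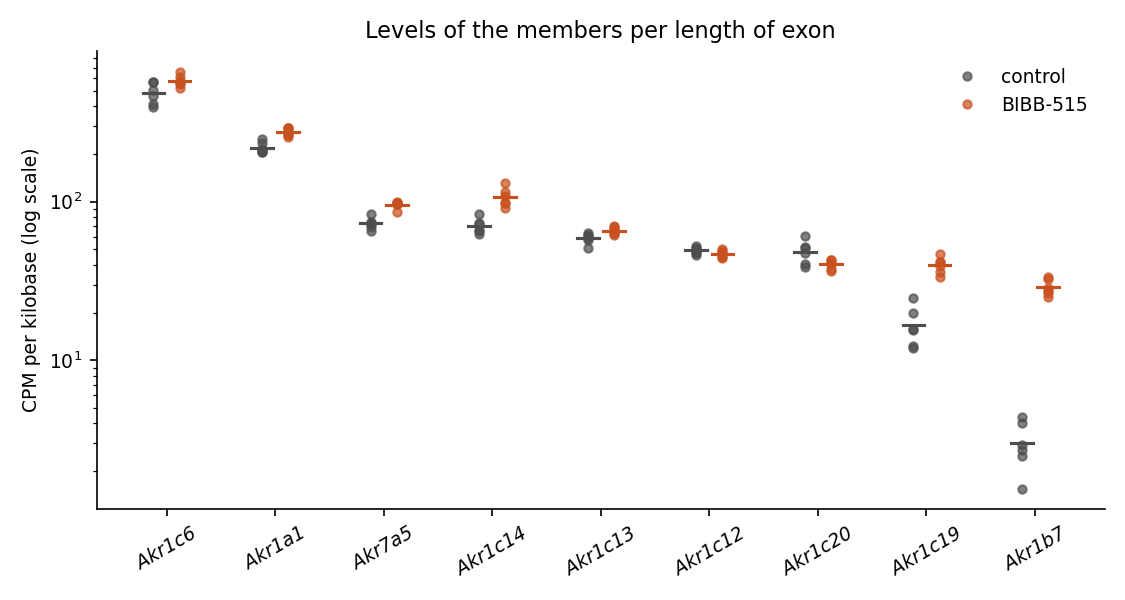
CPM per kilobase of exon (y axis, log scale) of the 9 genes in order of their control mean, for each control mouse (grey) and BIBB-515 mouse (orange), with a line at each mean. Akr1c6 is highest at 486 and 579 CPM per kilobase, and Akr1b7 lowest at 3.02 and 28.9.

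The relative spread between mice also differed between the diets for some genes. The coefficient of variation of Akr1b7 was 34.7% in the control and 11.4% in the BIBB-515 mice, and that of Akr1c19 was 29.3% and 11.5%. It was also lower with BIBB-515 for genes not past the threshold, such as Akr1c20 (16.5% and 6.48%) and Akr1c6 (15.5% and 8.36%). Only for Akr1c14, at 10.8% and 13.4%, and Akr1c12, at 4.59% and 5.05%, was it higher with BIBB-515. These spreads rest on 6 mice each and were not tested against each other.

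Of 11 further genes of the aldo-keto reductase superfamily in the count tables, 8 were tested, of which 2 rose and none fell. Over all tested genes 7.18% rose and 6.48% fell. The median log2 fold change of the 8 genes was 0.02. Beside Akr1b10, the gene that rose was Akr1d1, the steroid reductase that prepares bile acid precursors. Akr1d1 rose from 215 ± 25.1 CPM to 339.5 ± 20.6 CPM (SD, n = 6 each), which is a log2 fold change of 0.66 ± 0.08 (SE; FDR 0.000102), without overlap. Akr1c18, which inactivates progesterone, ranged from 1.82 to 15.2 CPM in the control mice and from 1.07 to 4.53 CPM in the BIBB-515 mice (log2 fold change -1.44 ± 0.49, SE; FDR 0.0614). Kcnab3, a potassium channel subunit with this fold, was at 1.19 and 0.694 CPM (log2 fold change -0.78, FDR 0.135).

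Other enzymes that handle carbonyls were counted in the same fit, where 7.18% of all tested genes rose and 6.48% fell. Of 13 tested short-chain carbonyl reductases, 3 rose and none fell: Cbr1 (log2 fold change 0.53, FDR 0.00149), Dcxr, the xylulose reductase (0.62, FDR 0.00897), and Blvrb, the biliverdin reductase (0.37, FDR 0.0144). Dhrs3, which reduces retinal, had a log2 fold change of 0.35 and an FDR of 0.0601. The median log2 fold change of these 13 genes was 0.14. Of 15 aldehyde dehydrogenases, which oxidize aldehydes to acids, 5 rose and none fell, with a median log2 fold change of 0.14. The largest of these was Aldh1a1, a retinal dehydrogenase, at 400 ± 12.0 CPM and 1900 ± 282 CPM (SD, n = 6 each; log2 fold change 2.25, FDR 1.60e-09). Aldh1a7 (log2 fold change 1.53), Aldh1b1 (0.53) and Aldh7a1 (0.47) also rose, with FDR of at most 0.00681.

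Of 16 steroid ring and hydroxysteroid enzymes, Akr1d1 among them, 3 rose and 1 fell, against 7.18% and 6.48% of all tested genes. The median log2 fold change of the 16 genes was 0.02. Hsd17b6 went from 235 ± 83.6 CPM to 416 ± 83.2 CPM (SD, n = 6 each; log2 fold change 0.82, FDR 0.0220), and Hsd17b13, a protein of lipid droplets, from 436 ± 52.5 CPM to 528 ± 40.3 CPM (log2 fold change 0.28, FDR 0.0413). Hsd3b5, a hydroxysteroid dehydrogenase of mouse liver, was at 9.39 ± 6.63 CPM in the control mice and fell (log2 fold change -1.89, FDR 0.0441). Each of these 3 overlapped between the diets.

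Beside these, 14 of 19 genes known as targets of the drug-sensing receptors CAR and PXR rose and none fell, with a median log2 fold change of 1.70. As above, 7.18% of all tested genes rose. The 4 with the lowest p were Ces2a (log2 fold change 3.53), Cyp2c55 (5.98), Cyp3a11 (3.24) and Gsta1 (6.38), with FDR of at most 1.59e-09. Gsta1 has near-identical copies in the genome, so its value is uncertain. Of 19 tested genes known as targets of NRF2, the regulator of the antioxidant response, 9 rose and none fell, with a median log2 fold change of 0.36. Among them were Gstm1 (log2 fold change 2.21), Ephx1 (1.61), Gsr (0.83) and Fth1 (0.69). Both lists hold glutathione transferase genes, and the part of CAR, PXR or NRF2 in the aldo-keto reductase differences was not tested.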

How the data were processed

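The deposited gene tables hold, per mouse, raw read counts in whole numbers, which the authors did not normalize. Per the file headers these were made with featureCounts 1.6.3 on the exons of a UCSC annotation of mm10, without a strand option and without reads on several places or several genes. The submitters' processing notes name STAR 2.5.3a and Subread 1.6.3. The library preparation is not given in the sources used here. Exon counts were used as a description, and tables that count primary alignments as an alternative. Transcript tables were not used.

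A gene was tested if it reached 1 CPM in 10% or more of the libraries (12481 of 24062 genes). TMM normalization and quasi-likelihood fits used edgeR 4.0.16 under R 4.3.3, without covariates, and with Benjamini-Hochberg adjustment over all tested genes. This filter and normalization are those the study describes for its human tissues. The test was tested on simulated data. Exact permutation tests ran over all 924 ways to divide the 12 mice, which allow no p below 0.00216. Pair ratios used counts plus 0.5. Exon reads were scaled by the gene-level library size. The common biological coefficient of variation was 0.143. The labels give no batch.

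The genes and gene lists were chosen with earlier results of these data known. Named genes are the 9 members and, of each other list, at most 4 tested genes with the lowest unadjusted p. Akr1b3 and Akr1b8, and the markers Lep, Mc2r, Cdx2 and Sis, which had 0 counts and were not tested, were named after their values were seen. The alternatives were RLE and upper-quartile normalization, DESeq2 1.42.0, limma-voom (limma 3.58.1), no filter, a filter of 1 CPM in 6 or more libraries, the primary-alignment tables, and each mouse left out in turn.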

Additional observations from a re-analysis of the deposited data

Results flagged for a closer look

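BIBB-515 mouse 6 was the lowest of its group for Akr7a5, at 142 CPM against 158 to 163 CPM in the other 5 mice, a gap of 0.761 of the group's range. It still lay above the highest control mouse, and without it the log2 fold change of Akr7a5 was 0.42. For Hsd17b13, control mouse 2 was the highest of its group with a gap of 0.730 of the range, and BIBB-515 mouse 11 the highest of its group with a gap of 0.724. These are 3 of 74 groups of 6 mice that were checked, where 3.7 would be flagged by chance.

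Akr1b3, the aldose reductase gene itself, had at most 1 read in any mouse in the gene tables, which also list Gm6644 at overlapping exon positions. In the primary-alignment tables, which count such reads for each gene, it had 190 to 399 reads per mouse. There it was at 8.87 ± 0.683 CPM in the control mice and 12.5 ± 1.67 CPM in the BIBB-515 mice (SD, n = 6 each; log2 fold change 0.49, FDR 0.00260 from edgeR's quasi-likelihood test). Reads of the overlapping genes cannot be told apart in these tables.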

How the results depend on the processing

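In the 7 alternatives that kept all 12 mice, the same 5 genes passed the threshold. One of them, the primary-alignment tables, held at most 0.0043% more reads for any of the 9 genes, so it could hardly differ. It held the same reads for Akr1c12 and Akr1c13 and does not address the stretches they share. Across those alternatives the log2 fold change ranged from 3.25 to 3.32 for Akr1b7, from 1.25 to 1.29 for Akr1c19 and from 0.33 to 0.34 for Akr1a1. With each mouse left out in turn, between 5 and 6 of the 9 genes passed, and the sixth was Akr1c20. Its log2 fold change then lay between -0.31 and -0.19, with an FDR of 0.0300 to 0.160, past the threshold without control mouse 2 or 3. Over all genes, 1489 to 2244 passed in the alternatives with all mice and 1199 to 1865 with 1 mouse left out. Of the 15 Akr1c pairs, 13 to 14 passed. The levels per kilobase moved by less than 1 SD. No paired analysis was possible because the diets share only 1 replicate number, which stands for different animals. Depth limits Akr1b7 in the control mice, at 48 reads or more.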

Other observations

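Within each diet, the log2 CPM values of the 9 genes were correlated in pairs over 6 mice, 36 pairs per diet and 72 in all. The lowest unadjusted p was that of Akr1b7 with Akr1c19 in the control mice, with Pearson's r = 0.91 (exact permutation p = 0.0139, adjusted p = 0.32) and Spearman's rho = 0.94 (exact permutation p = 0.0167, adjusted p = 0.48). Without the 2 mice farthest from the median of Akr1b7, r was 0.93. After adjustment none of the 72 pairs passed 0.05, against 3 control and 4 BIBB-515 pairs with an unadjusted exact permutation p under 0.05.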
